A study of Mus musculus with 4 samples.

Results

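Genes for potassium, calcium, sodium, chloride and transient receptor potential (TRP) channels were compared between mouse embryo fibroblasts (MEFs) that lack stathmin and MEFs that carry it. Members were taken by name from the array, as genes whose symbol begins with Kcn, Cacn, Clcn, Trpc, Trpm or Trpv, or with Scn and a digit. Ryanodine and inositol trisphosphate receptor genes were added. The epithelial sodium channel genes, named Scnn, are not members and stand among the other channels below. The array held 158 member genes, of 21299 named genes in all, on 270 probes. Of these, 95 were measured, meaning that a probe stood well above background in either genotype on at least 1 array, and 63 were not. The names take in 2 transcripts that are no channel subunits: Trpc4ap, which encodes a Trpc4-associated protein, and Kcnq1ot1, a long noncoding RNA that overlaps Kcnq1 on the opposite strand.

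The groups were STMN1-/- MEFs, in which a neomycin cassette disrupts the STMN1 gene at intron III, and STMN1+/+ MEFs. Both came from single embryos of C57BL/6 STMN1+/- matings, so the controls were wild type at this locus, and both were kept in the same serum-containing medium with no treatment. RNA of the 2 genotypes was hybridised together on 4 Agilent 2-color arrays of 60-base probes, with STMN1-/- RNA in Cy3 on arrays 1 and 2 and in Cy5 on arrays 3 and 4. Every ratio below is the log2 of STMN1-/- over STMN1+/+ signal, so that 1 stands for 2 fold higher in STMN1-/- cells, and is given as mean ± standard error (SE) of 4 arrays. A gene passed the test where limma's two-sided test against 0 had a Benjamini-Hochberg adjusted p under 0.05 over all 27648 probes tested. How many cultures the 4 hybridisations drew on is not given in the sources used here. The paper states that qRT-PCR used RNA of at least 2 lines per genotype and that the arrays shared its mRNA. It does not say which line was on which array. Errors and p-values here thus reflect variation from array to array, possibly technical alone. In RNA from whole cultures, fewer cells of a type and less RNA per cell cannot be told apart.

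Ion channels set the membrane potential and admit calcium. Potassium channels hold the cell negative inside, voltage-gated calcium channels open when that potential falls, and TRP channels respond to stretch, osmotic swelling, temperature, lipids or calcium itself. Ryanodine and inositol trisphosphate receptors release calcium from the endoplasmic reticulum, and most CLC proteins of fibroblasts exchange chloride for protons in endosomes and lysosomes. Fibroblasts do not fire action potentials, but their potassium channels and calcium entry take part in proliferation, migration and contraction.

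In STMN1-/- MEFs 22 of the 95 measured channel genes were higher and 15 lower, while 58 missed the threshold. Over all 15783 genes tested, 13.1% rose and 12.2% fell, against 23.2% and 15.8% of the channel genes. Counts by family and by gene list below stand beside the same shares of all genes, and no family or list was tested as a set. In either direction 25.4% of all genes and 38.9% of the channel genes passed. By the methods' t-test after the same adjustment the shares lay closer, with 9.47% of the channel genes higher and 9.47% lower, against 9.05% and 7.97% of all genes. The median log2 ratio was 0.12 over the channel genes and 0.01 over all genes. Of the 95 channel genes, 9 had a signal above background in 1 genotype only and thus entered through that genotype alone. Without these, 22 of 86 rose and 11 fell, or 25.6% and 12.8%, beside 13.4% and 12.1% of the 15073 genes measured in both genotypes. Among these 86, a change of at least 2 fold past the test was seen for 7, of which 5 rose and 2 fell, or 8.14%, against 2.73% of the 15073. All 37 changed genes kept their direction on each of the 4 arrays and in both dye orientations.

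Leaving out 1 array at a time left 10 higher and 12 lower without array 1, 11 and 10 without array 2, 12 and 11 without array 3, and 10 and 11 without array 4. These are 10.5% to 12.6% of the channel genes in each direction, where 6.41% to 7.27% of all genes rose and 5.6% to 6.35% fell. Of the 37 genes, 17 passed whichever array was left out, and 11, with log2 ratios between -0.48 and 0.50, passed in none of these fits, namely Kcnab2, Kcnn1, Cacna1s, Cacna2d1, Cacnb3, Clcn4-2, Clcn7, Itpr2, Kcna1, Kcnab3 and Kcnk13. Of the 17, Kcne2, Kcnc2 and Kcna4 had no STMN1-/- array above background and entered through STMN1+/+ MEFs alone. Their passing in every fit therefore adds no support. The counts and shares of these fits include the genes measured in 1 genotype only. The other 9 of the 37 depended on single arrays. Cacna1h missed the test without array 1, 2 or 3 (adjusted p up to 0.125) and Kcnip3 without array 1, 3 or 4 (up to 0.0990). Each of 6 genes missed it without either of 2 arrays, namely Cacna1b (arrays 1 and 2, up to 0.0678), Kcnk6 (3 and 4, up to 0.0581), Kcnmb1 (2 and 4, up to 0.0582), Ryr3 (2 and 4, up to 0.0740), Kcnk5 (2 and 3, up to 0.0658) and Kcne1l (2 and 4, up to 0.0535). Kcnk12 missed it without array 1 (0.0597).

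**Figure D1:**
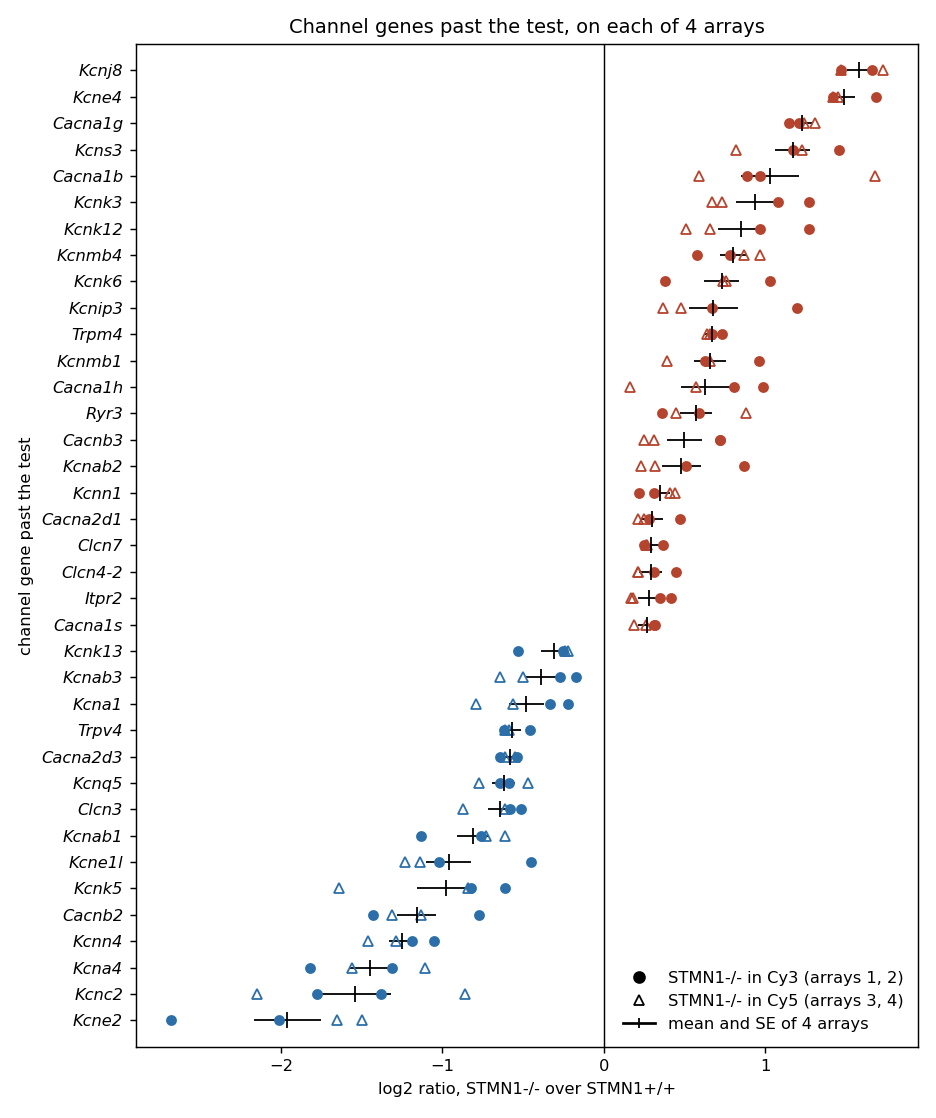
Log2 ratio of STMN1-/- over STMN1+/+ signal (x axis) for the 37 channel genes past the test (y axis), with filled circles for arrays 1 and 2, open triangles for arrays 3 and 4, and a black mark with a bar for the mean and SE. The 22 genes that rose lie right of 0 on every array, led by Kcnj8 at 1.58, and the 15 that fell lie left of it, down to Kcne2 at -1.96.

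Inward rectifier potassium channels pass current most easily into the cell and stabilise the resting potential. The largest rise of any channel gene was that of Kcnj8, the pore-forming subunit of the ATP-sensitive potassium channel of vascular smooth muscle and pericytes. Its signal was 1830, 2050, 2110 and 1950 in STMN1-/- MEFs on arrays 1 to 4, and 660, 649, 637 and 706 in STMN1+/+ MEFs. The 2 genotypes did not overlap, and the log2 ratio was 1.58 ± 0.07, or 2.99 fold (adjusted p = 8.0e-04). A dimmer second probe of Kcnj8 gave 1.76 ± 0.35 (adjusted p = 0.0246). Its signal was above background on 1 array in STMN1-/- MEFs and on none in STMN1+/+ MEFs. The sulfonylurea receptor gene Abcc9, whose product pairs with Kcnj8 and which lies next to it on chromosome 6, was barely measured. Abcc9 stood above background on 1 array in STMN1-/- MEFs and on none in STMN1+/+ MEFs, at a log2 ratio of 0.70 ± 0.35 (adjusted p = 0.218). The other 4 inward rectifiers measured, Kcnj4, Kcnj9, Kcnj10 and Kcnj15, ranged from -0.27 to 0.13 and did not pass the test, and 9 more, Kcnj2 and Kcnj11 among them, were not above background.

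Regulatory potassium channel subunits form no pore but change the gating, trafficking or surface level of the pores they bind. This family moved in both directions, with 3 of 9 measured members higher and 4 lower. Kcne4, a single-span subunit that silences Kcnq1 and some other voltage-gated pores, had STMN1-/- signals of 1960, 1890, 1740 and 1640 and STMN1+/+ signals of 608, 708, 652 and 602. That is a log2 ratio of 1.49 ± 0.07, or 2.82 fold (adjusted p = 8.03e-04), with the STMN1-/- signal far above the STMN1+/+ signal on each array. Its known partner Kcnq1 stood at -0.06 ± 0.07 (adjusted p = 0.598). Kcne2, of the same subunit family, went the other way. Its STMN1+/+ signals were 194, 235, 166 and 133, all well above background, and its STMN1-/- signals of 48.2, 36.6, 58.6 and 42.3 were all below it. The fall of Kcne2 is therefore a bound, at least 1.43-fold lower in STMN1-/- MEFs. The measured log2 ratio was -1.96 ± 0.21 (adjusted p = 0.00482), and the bound itself was not tested. Kcne1l, now called Kcne5, fell by 0.96 (log2 ratios of -0.45, -1.02, -1.23 and -1.14 on arrays 1 to 4, adjusted p = 0.0118).

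The cytoplasmic beta subunits of voltage-gated potassium channels divided as well. Kcnab1 fell on every array, with log2 ratios of -0.76, -1.13, -0.61 and -0.73 (mean -0.81 ± 0.10, adjusted p = 0.00712). Its mean signal was 10400 in STMN1-/- and 18300 in STMN1+/+ MEFs. Kcnab3 fell by less, at -0.39 ± 0.10 (adjusted p = 0.0437), and Kcnab2 rose by 0.48 ± 0.12 (adjusted p = 0.0448). Kcnip3, a calcium-binding protein that associates with Kcnd channels and also acts as a transcriptional repressor, rose by 0.68 ± 0.15 (adjusted p = 0.0330). On the 4 arrays Kcnip3 read 0.67, 1.2, 0.37 and 0.48, above 0 on each but of varying size.

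The sequence before the transcription start is shown for the 2 largest rises and the 2 largest falls among channel genes that were above background on every array in both genotypes and have a single start in the RefSeq promoter table. Each run is the 250 bases before the start, printed from 5′ to 3′ on the gene's strand. Capitals mark a match, on either strand, to a TATA box (TATAAA), a GC box (GGGCGG) or a CCAAT box (CCAAT), whose letters do not overlap one another here.
Kcnj8 upstream region (GRCm38.p6 chr6:142571615-142571864, minus strand): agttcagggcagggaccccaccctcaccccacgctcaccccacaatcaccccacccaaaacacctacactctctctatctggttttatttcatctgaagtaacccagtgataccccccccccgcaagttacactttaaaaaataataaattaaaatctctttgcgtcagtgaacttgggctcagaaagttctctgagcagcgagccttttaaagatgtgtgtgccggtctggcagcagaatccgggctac
Kcne4 upstream region (GRCm38.p6 chr1:78816661-78816910, plus strand): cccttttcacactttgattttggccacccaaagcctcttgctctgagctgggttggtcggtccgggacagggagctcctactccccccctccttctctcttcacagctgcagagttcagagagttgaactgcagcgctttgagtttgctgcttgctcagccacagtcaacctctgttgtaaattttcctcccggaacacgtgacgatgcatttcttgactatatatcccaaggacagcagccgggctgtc
Kcnn4 upstream region (GRCm38.p6 chr7:24370013-24370262, plus strand): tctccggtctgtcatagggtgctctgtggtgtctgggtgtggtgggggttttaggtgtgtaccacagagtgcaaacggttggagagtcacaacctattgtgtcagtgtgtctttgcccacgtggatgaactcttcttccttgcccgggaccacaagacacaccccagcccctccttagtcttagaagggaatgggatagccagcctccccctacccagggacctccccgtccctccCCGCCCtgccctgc
Kcne1l upstream region (GRCm38.p6 chrX:142306199-142306448, minus strand): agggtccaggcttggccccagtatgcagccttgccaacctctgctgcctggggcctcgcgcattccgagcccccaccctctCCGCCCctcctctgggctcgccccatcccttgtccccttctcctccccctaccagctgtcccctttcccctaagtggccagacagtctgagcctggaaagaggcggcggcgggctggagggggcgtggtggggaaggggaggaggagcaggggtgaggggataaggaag
Over the same 250 bases of all 32851 RefSeq promoters in the table, 12.4% hold the TATA box letters, 32.7% the GC box and 33.8% the CCAAT box. Kcnn4 and Kcne1l each hold 1 GC box, on the opposite strand to the gene. Neither Kcnj8 nor Kcne4 holds any of the 3 motifs in this window. G and C made up 49.2% of the Kcnj8 bases, 53.2% of Kcne4, 58.8% of Kcnn4 and 68% of Kcne1l.

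Voltage-gated potassium channel pores open on depolarisation. None of the 15 measured members, with the noncoding Kcnq1ot1 counted among them, rose by the brightest probe of the gene. In the same family 4 fell, while 14 more were not above background. Kcnc2, a fast pore of rapidly firing neurons, had STMN1+/+ signals of 190, 156, 149 and 187, and STMN1-/- signals of 55.3, 60, 33.4 and 103. The latter were not well above background on any array, so that Kcnc2 was at least 1.37-fold lower. The measured log2 ratio was -1.54 ± 0.22 (adjusted p = 0.0101). Kcna4, an A-type pore, read -1.31, -1.82, -1.11 and -1.56 (adjusted p = 0.00297). Its signal was above background on 1 array in STMN1+/+ MEFs and on none in STMN1-/- MEFs, and no fold is given.

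Kcnq5, a pore of the slowly activating M-type current, was 1.54 fold lower, at -0.59, -0.64, -0.77 and -0.47 on the 4 arrays (mean -0.62 ± 0.07, adjusted p = 0.00580). Kcna1, a delayed rectifier of axons, fell by 0.48 (adjusted p = 0.0371), with log2 ratios from -0.79 to -0.22. Other pores of the family did not pass by their brightest probe. Kcnh2, the heart's rapid delayed rectifier, stood at 0.15 ± 0.07 and Kcnd2, an A-type pore, at 0.36 ± 0.14 (adjusted p = 0.136). A second, dimmer probe of Kcnd2 rose by 0.65 ± 0.07 (adjusted p = 0.00519), at 0.76, 0.55, 0.75 and 0.52. The noncoding Kcnq1ot1 stood at 0.10 ± 0.09 (adjusted p = 0.434).

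Electrically silent subunits make no channel alone and alter the pores they join. Kcns3 rose on all arrays, from 369, 521, 470 and 611 in STMN1+/+ MEFs to 1010, 1170, 1100 and 1080 in STMN1-/- MEFs. Its log2 ratio was 1.17 ± 0.11 (2.25 fold, adjusted p = 0.00362). The other measured silent subunit, Kcnf1, stood at 0.07 ± 0.07, and 6 of the 8 on the array were not above background.

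Tandem pore domain potassium channels, named Kcnk, are open at rest and carry the leak current that sets the resting potential. Of the 7 measured, 3 rose and 2 fell. Kcnk3, the acid-sensitive leak channel, had STMN1-/- signals of 1870, 1970, 1260 and 1420 against 884, 818, 755 and 897 in STMN1+/+ MEFs. Each STMN1-/- value exceeded each STMN1+/+ value, and the log2 ratio was 0.94 ± 0.12 (1.91 fold, adjusted p = 0.00779), with a second probe at 0.76 ± 0.06 (adjusted p = 0.00210).

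Kcnk12, a member that carries little current when alone, rose by 0.85 ± 0.14 (adjusted p = 0.0149), at 0.97, 1.27, 0.66 and 0.51. Kcnk6, a weakly inward rectifying member, read 1.03, 0.38, 0.76 and 0.74 (mean 0.73 ± 0.11, adjusted p = 0.0134). Kcnk13, the closest relative of Kcnk12, went the other way by a small step, -0.31 ± 0.08 (adjusted p = 0.0432). Kcnk5, an alkaline-activated leak channel, had STMN1+/+ signals of 193, 175, 186 and 244 and STMN1-/- signals of 126, 99.1, 104 and 78.6. The latter were not well above background on any array, so Kcnk5 was at least 1.59-fold lower. The measured log2 ratio was -0.98 ± 0.18 (adjusted p = 0.0203). The remaining members Kcnk1 and Kcnk2, at 0.28 ± 0.12 and 0.36 ± 0.15, did not pass.

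Calcium-activated potassium channels couple a calcium rise to hyperpolarisation. The fall of Kcnn4, the intermediate-conductance channel of proliferating fibroblasts and lymphocytes, was the largest among channel genes above background in both genotypes. Its signal was 2540, 3300, 3660 and 3390 in STMN1+/+ MEFs and 1220, 1450, 1330 and 1380 in STMN1-/- MEFs. No value of one genotype reached the other, and the log2 ratio was -1.25 ± 0.08, a 2.37 fold difference (adjusted p = 0.00149). The small-conductance relative Kcnn1 rose by 0.35 ± 0.06 (adjusted p = 0.0211), and Kcnn2 stood at 0.20 ± 0.06 (adjusted p = 0.0862). Of the regulatory beta subunits of the large-conductance (BK) channel, 2 rose. Kcnmb4 read 0.78, 0.58, 0.97 and 0.87 (mean 0.80 ± 0.08, adjusted p = 0.00441), and Kcnmb1, the smooth muscle form, read 0.96, 0.63, 0.39 and 0.66 (mean 0.66 ± 0.10, adjusted p = 0.0135). A further beta subunit, Kcnmb2, stood at 0.12 ± 0.25. The BK pore gene Kcnma1 was not above background in either genotype on any array.

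**Figure D2:**
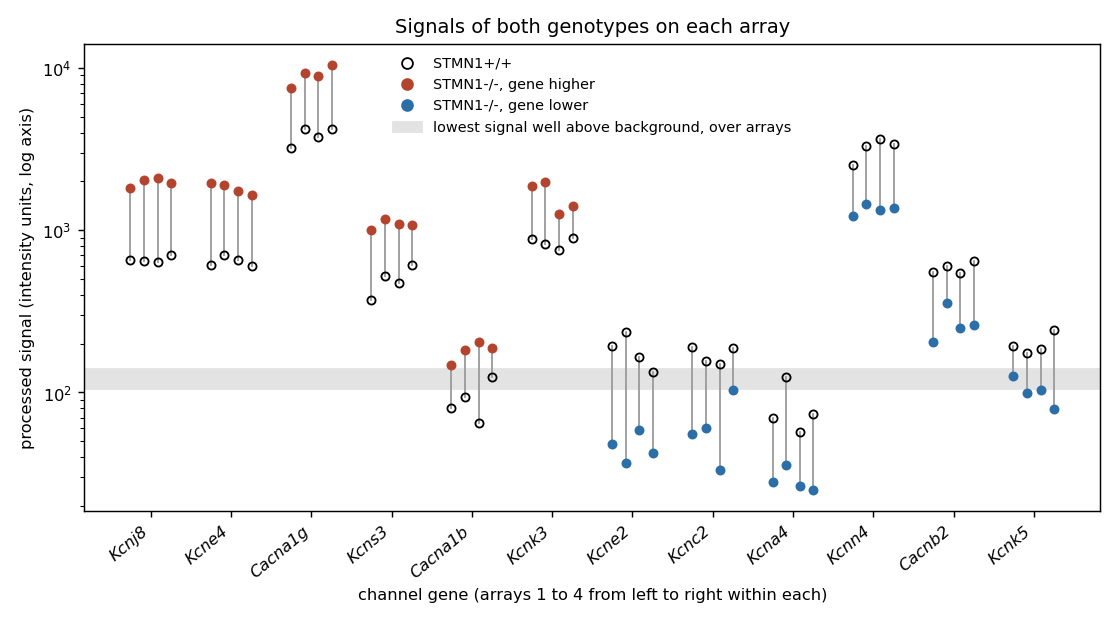
Processed signal on a log axis (y) for the 6 largest rises and 6 largest falls among channel genes (x), with the 4 arrays side by side, STMN1+/+ as open and STMN1-/- as filled circles. The grey band spans the lowest signal well above background over arrays, 105 to 140; STMN1-/- signals of Kcne2, Kcnc2, Kcna4 and Kcnk5 lie in or below it, while those of Kcnj8, Kcne4, Cacna1g and Kcnn4 lie far above.

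Voltage-gated calcium channel pores admit calcium on depolarisation. In this family 4 of 6 measured members rose, none fell, and 4 more were not above background. Cacna1g, a low-threshold T-type pore, had STMN1-/- signals of 7480, 9260, 8920 and 10400 and STMN1+/+ signals of 3230, 4180, 3780 and 4200. The 2 sets did not overlap, at a log2 ratio of 1.23 ± 0.06 (2.34 fold, adjusted p = 8.0e-04), and a second probe gave 1.02 ± 0.19 (adjusted p = 0.0199). A second T-type pore, Cacna1h, rose by 0.63 ± 0.15 (adjusted p = 0.0379), with the array values 0.99, 0.81, 0.57 and 0.16 spread widely. The third, Cacna1i, was not above background.

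Cacna1b, the N-type pore of nerve endings, read 0.89, 0.97, 1.68 and 0.59 (mean 1.03 ± 0.18, adjusted p = 0.0185). Its STMN1+/+ signal passed background on 1 array only, and its second probe, at 0.38 ± 0.24, did not pass the test. Cacna1s, the L-type pore of skeletal muscle, rose by 0.27 ± 0.06 (adjusted p = 0.0274). Cacna1c, the L-type pore of heart and smooth muscle, stood at 0.15 ± 0.10 (adjusted p = 0.335), and Cacna1a at 0.13 ± 0.07.

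Auxiliary calcium channel subunits carry the pore to the membrane and tune its gating. Of 13 measured, 2 rose and 2 fell. The beta subunit gene Cacnb2 had STMN1+/+ signals of 556, 606, 548 and 649 and STMN1-/- signals of 206, 354, 250 and 262. Its log2 ratio was -1.16 ± 0.12 (2.24 fold lower, adjusted p = 0.00456), and its second probe fell by 0.69 (adjusted p = 0.00361). A related beta subunit, Cacnb3, rose by 0.50 ± 0.11 (adjusted p = 0.0337), at 0.72 on both arrays with STMN1-/- RNA in Cy3 and at 0.25 and 0.31 on the others. The alpha2delta genes divided likewise, with Cacna2d3 at -0.58 ± 0.05 (adjusted p = 0.00339) and Cacna2d1 at 0.30 ± 0.07 (adjusted p = 0.0334). Their relative Cacna2d2 stood at 0.02 ± 0.09. All 6 measured gamma subunits, Cacng1, Cacng2, Cacng4, Cacng6, Cacng7 and Cacng8, did not pass, with log2 ratios from -0.41 to 0.39.

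TRP channels are nonselective cation channels. Of the 10 genes measured under these names, with Trpc4ap counted among them, 1 rose and 1 fell. Trpm4, which is opened by internal calcium and depolarises the cell, read 0.67, 0.73, 0.64 and 0.66 (mean 0.67 ± 0.05, 1.60 fold, adjusted p = 0.00223). Its second probe gave 0.81 ± 0.10 (adjusted p = 0.00763). Trpv4, a calcium-permeable channel opened by swelling and stretch, had STMN1+/+ signals of 3170, 3240, 2800 and 2990 and STMN1-/- signals of 2310, 2110, 1830 and 1980. Every STMN1-/- value lay below every STMN1+/+ value, at -0.57 ± 0.06 (1.49 fold lower, adjusted p = 0.00454).

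Several other TRP genes that are readily measured in these fibroblasts stood near 0. Trpm7, a magnesium and calcium channel fused to a kinase, stood at -0.01 ± 0.08, Trpv2 at 0.10 ± 0.06 and Trpc1 at 0.14 ± 0.07. Trpc6, a diacylglycerol-gated channel, stood at 0.16 ± 0.07. Trpm1 had the largest mean of the family, 1.10 ± 0.73, but this came from array 2 at 3.94 against 0.03, 0.15 and 0.29 on the others (adjusted p = 0.332), and its STMN1+/+ signal was above background on no array. Trpc4ap stood at 0.15 ± 0.08 (adjusted p = 0.236).

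Of the 5 intracellular release channels measured, 2 rose and none fell. Ryr3, the ryanodine receptor found at low level in many tissues, rose by 0.57 ± 0.10 (adjusted p = 0.0186) and Itpr2, an inositol trisphosphate receptor, by 0.28 ± 0.07 (adjusted p = 0.0462). Itpr1, at 0.01 ± 0.07, Itpr3, at -0.25 ± 0.11 (adjusted p = 0.159), and Ryr1, at 0.03 ± 0.06, did not pass, and Ryr2 was not above background. CLC genes moved in small steps. Clcn7, the lysosomal chloride and proton exchanger, and Clcn4-2, an endosomal one now called Clcn4, both rose by 0.29 (SE 0.06 and 0.07, adjusted p = 0.0224 and 0.0358). Clcn3, their endosomal relative, fell by 0.64 (adjusted p = 0.00722), at -0.51, -0.58, -0.61 and -0.87, with a second probe at -0.68 ± 0.10 (adjusted p = 0.0108). Clcn2 and Clcn5 stood at -0.14 ± 0.07 and -0.11 ± 0.07.

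Sodium channel subunits were the only one of the 12 families with no gene past the test by its brightest probe, with 6 measured and 7 not above background. The epithelial sodium channel genes, named Scnn, are not counted in this family. The pore Scn4a stood at 0.00 ± 0.13, and the beta subunit Scn3b at 0.06 ± 0.12.

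**Figure D3:**
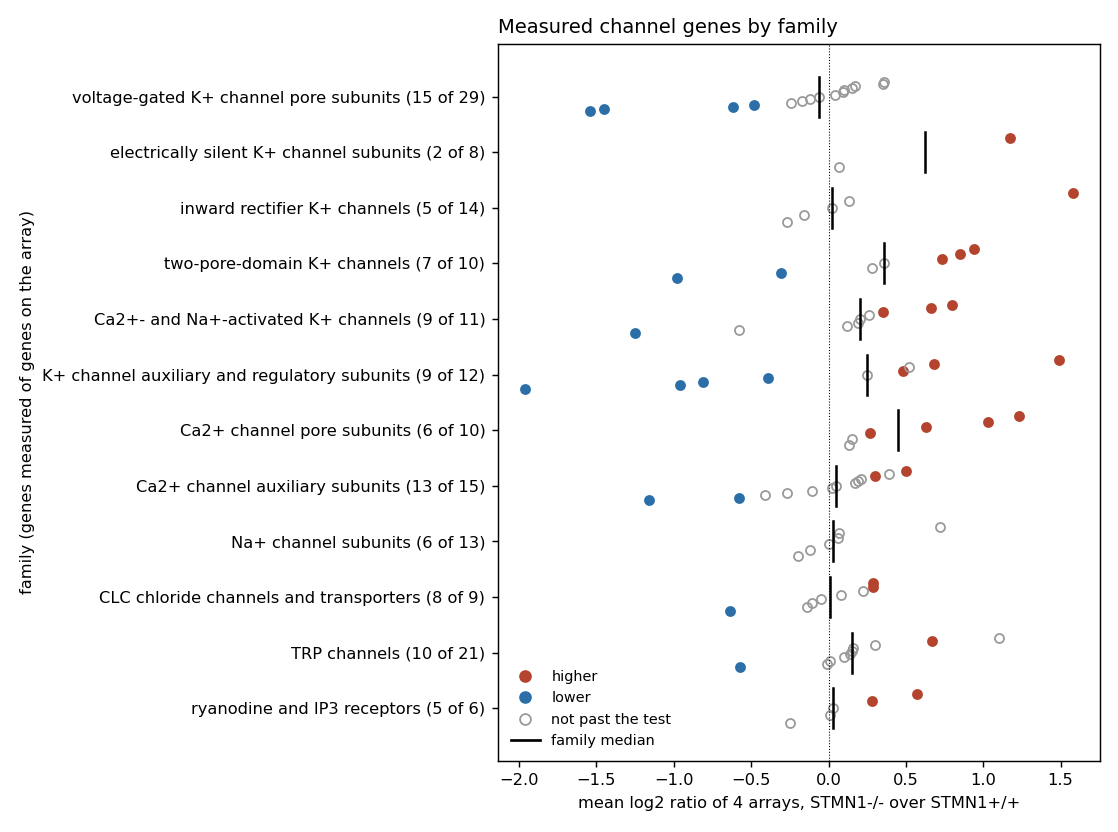
Mean log2 ratio over 4 arrays (x axis) of each of the 95 measured channel genes, by family (y axis, with genes measured of genes on the array), filled where past the test, and with a black line at the family median. Calcium channel pores lie right of 0, voltage-gated potassium pores past the test lie left of it, and no sodium channel subunit is filled.

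Where a gene had several probes, these were compared. Of the 95 genes, 31 had more than 1 probe above background. Both probes passed in the same direction for Kcnj8, Cacna1g, Kcnk3, Trpm4, Clcn3 and Cacnb2. The second Kcnj8 probe was above background on 1 STMN1-/- array only, and so adds little to the first. In several other changed genes the dimmer probe did not pass, though its mean kept the sign of the brightest. These were Kcnab1 at -0.49 ± 0.20 (adjusted p = 0.142) and Kcnip3 at 0.67 ± 0.30 (adjusted p = 0.174). Others were Itpr2 at 0.20 ± 0.07, Cacna2d1 at 0.34 ± 0.13 and Cacna1b at 0.38 ± 0.24 (adjusted p from 0.101 to 0.317). On array 1 the dimmer Kcnab1 probe read 0.02, and on array 3 the dimmer Kcnip3 probe read -0.12. For Cacna1h, 2 of 3 probes rose, at 0.63 and 0.41, and the other stood at 0.03 ± 0.15. The probe at 0.41 was dim, with mean signals of 144 in STMN1-/- and 108 in STMN1+/+ MEFs, above background on only 2 arrays in each. Probes of Ryr3 disagreed in sign where 1 had passed the test. Its brightest probe stood at 0.57 and the others at 0.17 ± 0.08 and -0.10 ± 0.14. In Clcn5 a dimmer probe fell by 0.28 (adjusted p = 0.0434) where the brighter stood at -0.11.

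Shown are 4 probes past the test that span a splice junction and also read through in at least 1 frame with no stop codon. Their ends lie farther apart on the genome than their 60 bases. Their sequences are shown because they mark spliced transcript and not genomic DNA, and no base is singled out by capitals. Coordinates are those of the array file.
Cacna1h probe (mm7 chr17:23577104-23578456, minus strand): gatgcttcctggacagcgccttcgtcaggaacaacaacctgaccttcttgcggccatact
Kcnd2 probe (mm7 chr6:21662299-21663298, plus strand): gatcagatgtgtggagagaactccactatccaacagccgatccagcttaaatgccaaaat
Kcnip3 probe (mm7 chr2:127199214-127200214, minus strand): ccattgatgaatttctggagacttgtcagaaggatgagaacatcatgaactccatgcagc
Trpm4 probe (mm7 chr7:41480573-41480712, minus strand): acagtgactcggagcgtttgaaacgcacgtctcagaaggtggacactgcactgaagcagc
The genomic span was 1353 bases for Cacna1h, 1000 for Kcnd2, 1001 for Kcnip3 and 140 for Trpm4. Their log2 ratios were 0.41 ± 0.06, 0.65 ± 0.07, 0.68 ± 0.15 and 0.81 ± 0.10. The Cacna1h probe was dim, above background on only 2 arrays in each genotype. All 4 probes rose, but junction-spanning probes did not all rise. The ends of the Kcnn4 probe (mm7 chr7:21171871-21172469) also lie farther apart than 60 bases. That probe is not among the 4 and fell, at -1.25 ± 0.08.

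**Figure D4:**
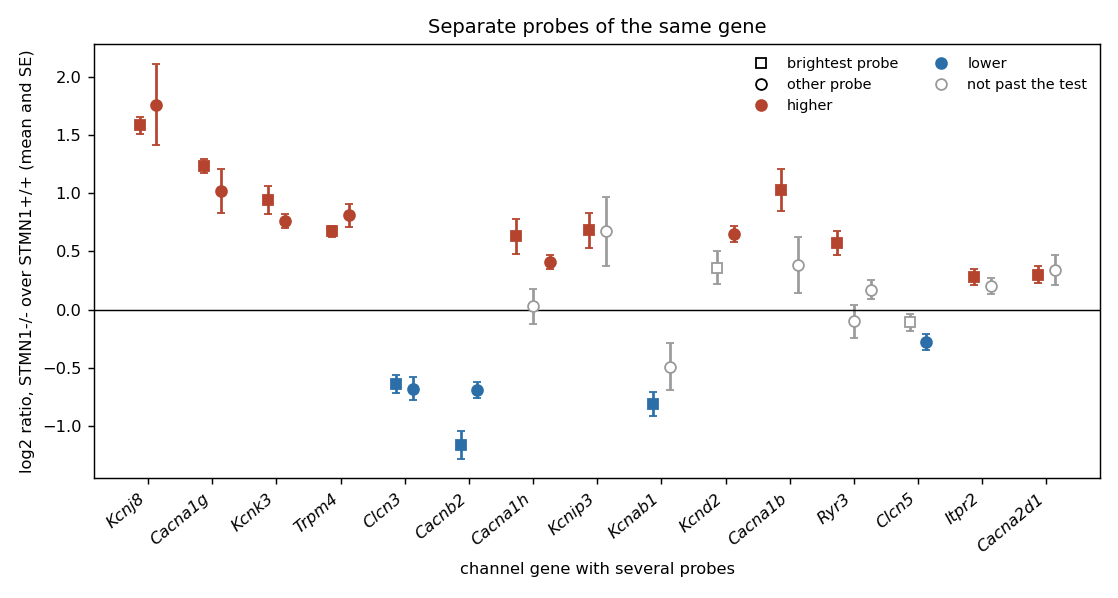
Log2 ratio with its SE (y axis) of each probe above background for 15 channel genes with several probes (x axis), squares for the brightest probe and circles for others, filled where past the test. Probes of Kcnj8, Cacna1g, Kcnk3, Trpm4, Clcn3 and Cacnb2 lie on the same side of 0 and are filled, while those of Ryr3 lie on either side.

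The fewest channel genes of any setting run passed when background correction and normalisation were both exchanged. With the mean signals corrected by normexp and normalised by loess, 8 channel genes rose and 2 fell, or 8.42% and 2.11%, against 5.14% and 5.43% of all genes. The share of changed channel genes that rose thus went from 59.5% to 80%. The 10 that passed under both were Kcnj8, Kcne4, Cacna1g, Kcnk3, Trpm4, Cacnb3, Clcn4-2 and Clcn7 among those that rose and Kcnn4 and Kcnab1 among those that fell. Of the 4 calcium channel pores that rose, Cacna1g alone passed with normexp and loess, and none of the 4 voltage-gated potassium pores that fell did. All 37 kept their direction, but the median size of their log2 ratios went from 0.67 to 0.21. This setting adds an offset of 50 to both channels, which by itself draws ratios toward 0, most in dim genes. The smaller ratios are thus no measure of how large the changes were. Dim genes that no longer passed included Kcne2 at -0.20 ± 0.06 (adjusted p = 0.0955), Kcnc2 at -0.17 ± 0.06 (adjusted p = 0.143) and Kcna4 at -0.09 ± 0.04 (adjusted p = 0.248). Kcnj8, at 0.82 ± 0.18, and Kcne4, at 0.79 ± 0.17, stayed past the test, and Kcns3, at 0.51 ± 0.12, just missed (adjusted p = 0.0565).

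**Figure D5:**
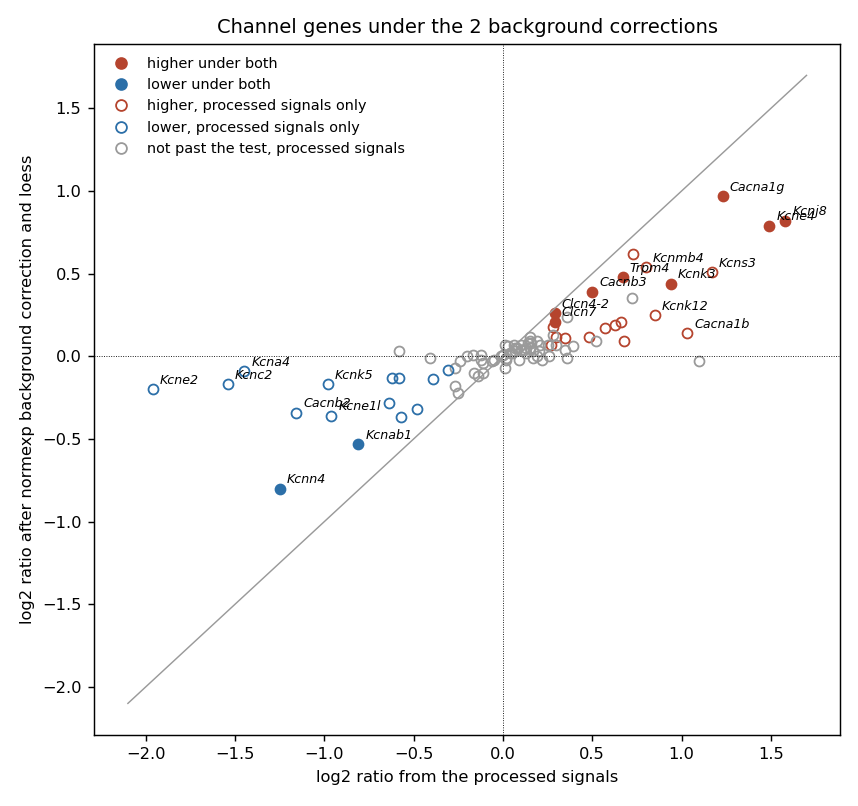
Log2 ratio of the 95 measured channel genes from the deposited processed signals (x axis) and after normexp background correction and loess (y axis), filled where past the test under both, with the line of equal values in grey. Points lie nearer 0 on the y axis, and 10 of 37 changed genes are filled, Cacna1g highest at 0.97 and Kcnn4 lowest at -0.80.

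The wider ion transport machinery was followed in 4 gene lists, whose counts stand beside 13.1% of all genes that rose and 12.2% that fell. Of 21 pumps and exchangers measured, 3 rose and 3 fell. Fxyd6, a regulator of the sodium pump, rose by 1.01 ± 0.07 (adjusted p = 0.00168), while Fxyd5, another of that family, fell by 0.81 (adjusted p = 0.00401) and the pump's beta subunit Atp1b1 by 0.54 (adjusted p = 0.00770). Fxyd2, with no STMN1+/+ array above background, was at least 1.36-fold higher, with a measured log2 ratio of 0.68 ± 0.13 (adjusted p = 0.0246). Among 11 genes of store-operated and mitochondrial calcium entry, 2 rose and 1 fell, and each moved by 0.40 or less. Stim2, a sensor of endoplasmic reticulum calcium, fell by 0.40 (adjusted p = 0.0123), Micu2, a gatekeeper of the mitochondrial uniporter, rose by 0.31 ± 0.08 (adjusted p = 0.0444), and Tmem165 by 0.35 ± 0.09 (adjusted p = 0.0498).

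Other cation and anion channels numbered 39, of which 10 rose and 7 fell. Ano1, a calcium-activated chloride channel, fell by 1.72 (3.29 fold, adjusted p = 7.67e-04). The epithelial sodium channel subunit Scnn1g had a mean signal of 261 in STMN1+/+ MEFs, above background on all 4 arrays. In STMN1-/- MEFs its mean signal was 41.2, above background on none. Scnn1g was at least 2.10-fold lower, with a measured log2 ratio of -2.66 ± 0.25 (adjusted p = 0.00348). Scnn1a, another subunit of that channel, was above background on all 4 arrays in both genotypes and fell by 0.77 (adjusted p = 0.00248). Mcoln3, an endolysosomal TRP relative above background on 2 STMN1+/+ arrays and no STMN1-/- array, was at least 1.2-fold lower. Its measured log2 ratio was -1.33 ± 0.26 (adjusted p = 0.0245). The ATP-gated channel P2rx6 was above background in STMN1-/- MEFs alone, at least 1.84-fold higher. Its measured log2 ratio was 1.22 ± 0.09 (adjusted p = 0.00193).

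Of 38 genes that read or relay calcium signals, 6 rose and 3 fell. Nfatc4, a transcription factor activated by calcineurin, rose by 0.81 ± 0.07 (1.76 fold, adjusted p = 0.00326), and Fkbp1b, which binds ryanodine receptors, by 0.66 ± 0.07 (adjusted p = 0.00558). Plcb1, which makes inositol trisphosphate, rose by 0.91 ± 0.19 (adjusted p = 0.0297). Camk1d, a calmodulin-dependent kinase, fell by 0.76 (adjusted p = 0.0316). Median log2 ratios of the 4 lists lay between -0.06 and 0.08, beside 0.01 over all genes.

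Marker genes of cell types moved beside these channels, and their part in the channel results was not tested. Summed signals below are set largely by the brightest genes of a list. Ncam1, of the neural and glial list, had a mean signal of 101000 in STMN1-/- and 82500 in STMN1+/+ MEFs. Lyz2, of the macrophage and leukocyte list, had 129000 and 151000. Of 13 fibroblast markers, 10 rose and 1 fell, with summed signals from 4440000 to 6890000 in STMN1-/- and from 4040000 to 4670000 in STMN1+/+ MEFs. Of 16 neural and glial markers measured, 2 rose and 11 fell, with summed signals of 139000 to 172000 and 145000 to 158000, and Gfap, Dcx and Snap25 were not above background. Of 12 epithelial markers, none rose and 9 fell, with sums of 56900 to 66700 and 85700 to 96600, and Epcam was not above background. Smooth muscle and pericyte markers gave 3 rises and no fall of 11, with sums, over the 10 with a value on every array, of 3180000 to 3790000 and 2550000 to 2970000. Skeletal and cardiac muscle markers gave 11 rises and 3 falls of 20 (493000 to 605000 and 387000 to 478000), endothelial markers 4 rises and 1 fall of 9 (41500 to 47300 and 28000 to 32600), with Pecam1 and Cdh5 not above background, and macrophage and leukocyte markers 4 rises and 2 falls of 14 (135000 to 157000 and 161000 to 182000).

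The targeted gene was checked with its 2 probes. Stmn1 was 4.46 fold lower by one probe (log2 ratio -2.16 ± 0.06, adjusted p = 6.02e-04) and 1.31 fold lower by the brighter one (-0.39 ± 0.07, adjusted p = 0.0181). Remaining signal does not measure remaining Stmn1 RNA. The paper calls the array's STMN1 probe flawed, since it also matches a region of another chromosome. It does not say which of the 2 probes is meant. By qRT-PCR and western blot it reports neither STMN1 mRNA nor protein in STMN1-/- MEFs. Ratios of the 4 arrays correlated at 0.689 and 0.703 within a dye orientation and at 0.445 to 0.489 between orientations, over the probes above background. All arrays lay on 1 slide and were read in 1 scan, and their number limits the precision.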

How the data were processed

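Total RNA of cultured STMN1-/- and STMN1+/+ MEFs was labelled with Cy3 or Cy5 and hybridised to 4 Agilent whole mouse genome arrays. The deposited intensity values were made by the authors with Agilent Feature Extraction 9.5.3.1, with background subtraction, spatial detrending, surrogate values for dim spots and LOWESS dye normalization within each array. The log10 ratios (Cy5 over Cy3) in the deposited files served as an alternative. The authors' own lists of selected probes and log2 ratios were not used. Probe coordinates are those of mouse build mm7.

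Each array has 43379 noncontrol spots. Outlier spots (472 to 711 per array) were dropped, and repeat spots averaged on the log2 scale. No spot was saturated. Probes not above background in any channel of any array were left out, which kept 27759 of 41174. Those with values on 2 or more arrays, 27648, went into limma (version 3.58.1, R 4.3.3), which tested the log2 ratio against 0, with the Benjamini-Hochberg adjustment over all of them at 0.05. A gene is represented by its brightest probe. "At least" folds set the brighter genotype against, per array, the higher of the probe's own signal and the lowest signal of a spot well above background (105 to 140). The adjusted p given for such a gene tests its measured ratio, and the bound was not tested. Median log2 ratios per array were -0.01 to 0. Probes were named through RefSeq, in which all 158 channel names were found. Summaries and figures used Python 3.11.15, pandas 2.3.3, numpy 2.4.6 and matplotlib 3.10.9, with jsonlite 2.0.0 and data.table version 1.17.8 in R. The fit was tested on simulated data.

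Channel genes, families and gene lists were chosen with earlier results of these data known. Per-array values are given for up to 12 genes in each direction with the largest change past the test and the same sign on every array. The 3 brightest members of each family, members whose probes disagree, all other members past the test and the 4 largest changes of each ion transport list are also named. Other genes given with values (partners, families in full, markers, and genes with a large ratio that missed the test) were added after their values were seen. A few members are not reported here by name. Promoter sequences are RefSeq's, on GRCm38.p6. Alternatives were normexp (offset 50) with loess, the log10 ratios, median centring, scaling between arrays, both filters on dim probes, outlier spots kept, a dye term, averaged dye pairs, the methods' t-test, the median of a gene's probes and each array left out.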

Additional observations from a re-analysis of the deposited data

Results flagged for a closer look

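For 5 of the 71 named genes, 1 of the 4 arrays stood apart from the other 3 by more than Dixon's 95% limit for its gap over the whole range, which chance exceeds for about 1 gene in 20. Kcne4 read 1.69 on array 1, beside 1.42 to 1.45 on the others. Trpv4 read -0.46 on array 1, beside -0.62 to -0.59. Kcnk13 read -0.53 on array 2, beside -0.25 to -0.22, and missed the test whichever array was left out. Clcn7 read 0.37 on array 2, beside 0.25 to 0.27. Scnn1g read -1.71 on array 1, beside -3.08 to -2.85, with STMN1-/- signal below background throughout.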

How the results depend on the processing

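Channel genes higher and lower numbered 22 and 15. The counts were 8 and 2 with normexp and loess, and 9 and 9 by the methods' t-test after the Benjamini-Hochberg adjustment, or 9.47% each way against 9.05% and 7.97% of all genes. With 1 array left out they ranged from 10 to 12 and from 10 to 12, while over all genes the shares fell to between 6.41% and 7.27% and between 5.6% and 6.35%. Of the 37 genes past the test, 17 (7 higher and 10 lower) passed in every such fit and 11 in none. Kcnj8, Kcne4, Cacna1g, Kcns3, Kcnk3, Kcnmb4 and Trpm4 were the 7, with Kcne2, Kcnc2, Kcna4, Kcnn4, Cacnb2, Kcnab1, Clcn3, Kcnq5, Cacna2d3 and Trpv4 below 0. Among these, Kcne2, Kcnc2 and Kcna4 were above background in STMN1+/+ MEFs alone, so that their passing adds no support. No filter on dim probes gave 15 and 12 of 158 genes, or 9.49% and 7.59%, against 6.23% and 5.63% of all genes. A dye term gave 28 and 21, adding 6 genes in each direction, when 21.5% and 20.3% of all genes passed. The remaining alternatives gave 22 to 24 and 14 to 18, and no channel gene past the test changed sign under any setting run. Kcnk13 missed the test under both averages of dye pairs, Ryr3 when arrays 1 and 4, and 2 and 3, were averaged, and Ryr3 and Kcnip3 when a gene's probes were combined by their median. Tmem165 missed it with the log10 ratios and with median centring. Slide and scan as a block were not run, since each had a single value. Each array holds both genotypes, so the ratio tested against 0 is itself the paired comparison. Signal over background limits Kcna4, Kcne2, Kcnc2, Kcnk5 and Cacna1b most.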
